A study of Homo sapiens with 36 samples.

Results

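The NRF2 antioxidant genes are 10 genes chosen by name: the transcription factor NRF2 itself (gene symbol NFE2L2), its inhibitor KEAP1, and NQO1, HMOX1, GCLC, GCLM, TXNRD1, SRXN1, OSGIN1 and PRDX1. Rows were found through their NCBI GeneIDs in 3 RNA-seq tables of 16431, 17035 and 16459 genes. 9 of the 10 were measured in all 36 libraries, and OSGIN1 was not analysed here. The cells were NT2/D1-A4 and 2102EP-C1, each a cisplatin-resistant clone of an established human line of embryonal carcinoma, the stem-cell-like type of testicular germ cell tumor.

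Each table held 4 arms of 3 libraries. The first and second tables hold NT2/D1-A4 and 2102EP-C1 cells in an untreated arm, a cisplatin arm (6 h at 0.5 µM), a GSK-J4 arm (3 days at 1 µM) and a combination arm, in which cisplatin followed GSK-J4 at the same doses and times. The untreated libraries carry VC in their titles, and the paper describes them as untreated vehicle controls. GSK-J4 inhibits KDM6A and KDM6B, the demethylases that remove the polycomb mark H3K27me3. In the third table, 2102EP-C1 cells carried the empty lentiviral vector pLKO.1 or a pair of short hairpins against KDM6A and KDM6B (sh6A+6B, 1 hairpin per gene), each with or without the same cisplatin exposure. All 12 arms therefore came from resistant cells, and the sensitive parental cells were not part of these tables. By the paper, RNA was taken the day after cisplatin, so 6 h is the exposure and not the time of sampling.

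NRF2 is held at a low level by KEAP1, which binds it and directs it to degradation. Oxidants and electrophiles modify cysteines of KEAP1, after which NRF2 accumulates, pairs with a small MAF protein and binds antioxidant response elements near its targets. Those targets detoxify quinones, split heme, make glutathione and keep thioredoxin and peroxiredoxins reduced. Much of the control of NRF2 is at the level of the protein, so the mRNA of NFE2L2 need not follow the activity of the factor.

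The element is short, and its core can be looked for in promoter sequence. RefSeq promoters (GRCh38.p14, from 250 bases before to 50 after a start site) matched 8 of the 10 members, through 11 promoters. The letters TGACNNNGC, searched on both strands, occurred in 4 of those 11 promoters, belonging to KEAP1, GCLM and TXNRD1, against 13.347% of all 35116 promoters in the table. The shorter form TGANNNNGC, which includes every match of the longer one, occurred in 7 of the 11 promoters and 6 of the 8 genes, against 41.836% of all promoters. HMOX1 and PRDX1 had no entry. The windows below show 1 match per gene as it lies on the gene's own strand, 5′ to 3′, with the match in capitals. They are shown as examples of these letters, and binding by NRF2 was not tested.
GCLM, chr1:93909446-93909474, minus strand: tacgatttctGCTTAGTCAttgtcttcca
KEAP1, chr19:10502784-10502812, minus strand: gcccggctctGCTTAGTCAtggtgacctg
TXNRD1, chr12:104286920-104286948, plus strand: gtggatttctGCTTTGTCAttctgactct
NQO1 (shorter form alone), chr16:69726661-69726689, minus strand: tcctggagctGCAGCCTCAgcatcctccg
In every window shown the named letters lie on the opposite strand, so the capitals are their reverse complement. The promoters of KEAP1 and TXNRD1 hold further matches, some in the other orientation. That of GCLM holds a further match of the shorter form, and those of NFE2L2 and OSGIN1 hold the shorter form. The matches in GCLM and KEAP1 have the same letters in capitals. No match of either form was found in the promoters of GCLC and SRXN1. A match is a description of these windows, and windows without one say nothing of elements farther away.

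Depth, in 1e6 assigned reads, ranged from 26.8 to 49.5 in the NT2/D1-A4 libraries, from 30.2 to 53.6 in the 2102EP-C1 GSK-J4 libraries and from 79.4 to 100.9 in the knockdown libraries. No member rested on fewer than 407 reads in any library, and the median SD between replicates of an arm was 0.038, 0.041 and 0.031 on the log2 scale. KDM6A stood at 7.15 to 7.17 log2 CPM (reads scaled to library size) in pLKO.1 cells and 6.09 to 6.20 in sh6A+6B cells, and KDM6B at 4.61 to 4.66 and 3.51 to 3.75, so both targets matched the labels. All 12 embryonal carcinoma markers listed were measured in every table. With GSK-J4 their summed level went from between 10041 and 10265 CPM to between 8683 and 8926 in NT2/D1-A4, and from between 12930 and 13313 to between 11557 and 11842 in 2102EP-C1. With the knockdown it went from between 12193 and 12251 to between 11627 and 11754. Abundant markers weigh most in such sums: there DNMT3B alone went from between 2978 and 3003 to between 2328 and 2366. At an adjusted p under 0.05 in limma, 6 of the 12 were higher and 5 lower with the knockdown, where 52.8% of all genes passed. Of the 12, 1 rose (TDGF1, 0.75) and 1 fell (DNMT3B, -0.79) with GSK-J4 in NT2/D1-A4, 0 rose and 1 fell (DNMT3B, -0.43) in 2102EP-C1, and 1 rose (TNFRSF8, 0.40) and 0 fell with the knockdown. Of 18 markers of other cell types, 7 were measured in each GSK-J4 table, with summed levels of 147 to 148 CPM untreated and 122 to 134 with GSK-J4 in NT2/D1-A4, and 186 to 193 and 159 to 178 in 2102EP-C1. Among knockdown libraries there were 6 measured, at 186 to 193 CPM in pLKO.1 cells and 215 to 227 in sh6A+6B cells. THY1 was the most abundant of them in every control arm. It stood at 94 to 97 CPM untreated and 69 to 77 with GSK-J4 in NT2/D1-A4. In pLKO.1 and sh6A+6B cells it stood at 90 to 96 and 122 to 130. Rarer markers, named after their values were seen, went both ways with GSK-J4. In NT2/D1-A4 AFP went from between 0.18 and 0.32 CPM to between 0.67 and 0.68. GATA4 there went from between 2.1 and 2.7 to between 3.6 and 4.2, and PAX6 from between 0.14 and 0.22 to between 0.51 and 0.60. COL1A2 was lower there, from between 16.5 and 19.3 to between 12.9 and 13.5. AFP and GATA4 were also higher in 2102EP-C1. Of the measured markers of other cell types, 3 rose and 2 fell in NT2/D1-A4, 3 rose and 0 fell in 2102EP-C1, and 1 rose and 0 fell with the knockdown. By the same rule, given below, 20.3%, 10.9% and 12.1% of all genes rose or fell in the 3 comparisons. Those shares are also the background for the embryonal carcinoma markers that rose or fell. The part of these shifts in the results was not tested. In bulk RNA, fewer cells expressing a gene and less RNA per cell cannot be told apart. In the 2102EP-C1 combination arm, replicate 1 was the highest of the arm for NFE2L2, NQO1, GCLM, HMOX1, TXNRD1 and SRXN1 and the lowest for PRDX1, so calls that rest on that arm are also given without it.

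Per kilobase of canonical transcript, PRDX1 was the most abundant member in every control arm, at 901 CPM per kilobase in untreated NT2/D1-A4, 932 in untreated 2102EP-C1 and 1381 in pLKO.1 cells. TXNRD1 followed at 92.8, 62.4 and 62.5. The other members lay between 8.3 (HMOX1) and 27.7 (KEAP1) in NT2/D1-A4, between 10.2 (NQO1) and 31.4 (SRXN1) in 2102EP-C1 and between 10.5 (NQO1) and 35.1 (SRXN1) in pLKO.1 cells. These levels cross tables that were scaled separately, so no test was made between lines.

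**Figure D1:**
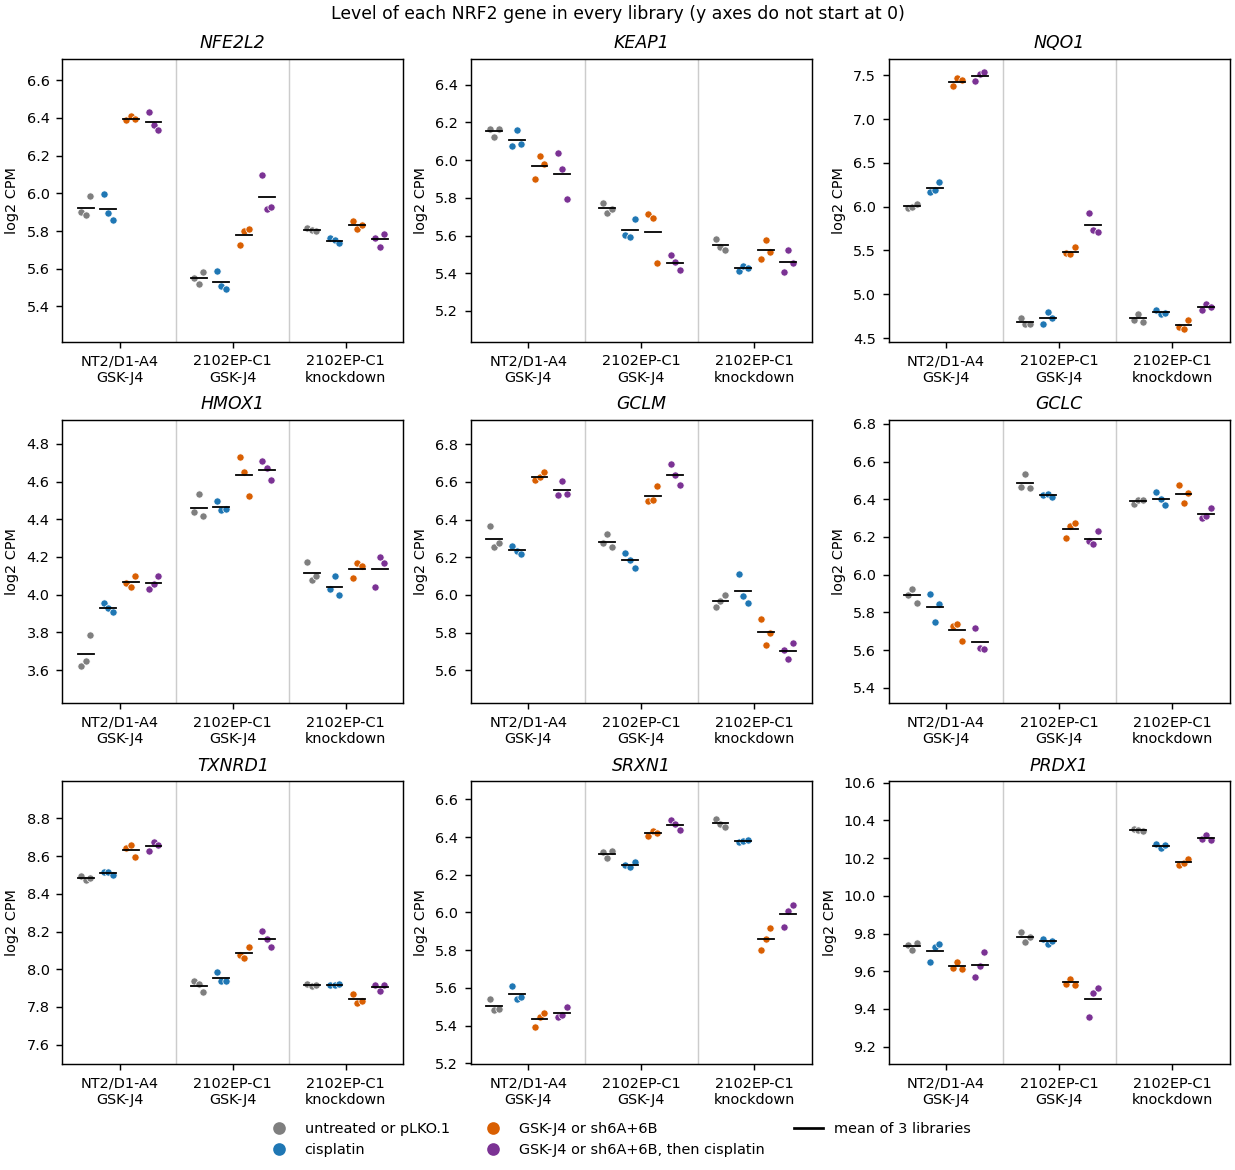
Level of each measured NRF2 gene in log2 CPM (y axis, which does not start at 0) in each of the 36 libraries, by experiment (x axis) and arm (color), with a bar at the mean of 3 libraries. NQO1 separates the GSK-J4 arms from the arms without GSK-J4 in both lines, between 7.37 and 7.54 against 5.99 to 6.29 in NT2/D1-A4, and does not separate the sh6A+6B arms from the pLKO.1 arms in that way.

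The first comparison asked what inhibiting or depleting the demethylases did to these genes without cisplatin. GSK-J4 raised NQO1 in both lines, 2.68-fold in NT2/D1-A4 and 1.74-fold in 2102EP-C1, and it raised NFE2L2 and HMOX1 in NT2/D1-A4. The double knockdown raised no member and lowered SRXN1 to 0.654 of its level in pLKO.1 cells. A gene is called here when its fold change exceeds 1.3 and its adjusted p in limma is under 0.05. The study's volcano plots used these thresholds, and its Venn diagrams used others. Only genes called by this rule are said to rise or fall. By that rule GSK-J4 called 3 of the 9 members in NT2/D1-A4, where 20.3% of all genes were called, and 1 in 2102EP-C1, where 10.9% were. The knockdown called 1 of 9 against 12.1% of all genes. On adjusted p alone the members numbered 8, 8 and 5, against backgrounds of 48.3%, 35.2% and 52.8%. The median log2 change of the 9 members was 0.15, 0.17 and -0.07 in the 3 experiments, beside 0.0084, -0.0017 and -0.0047 over all genes tested.

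**Figure D2:**
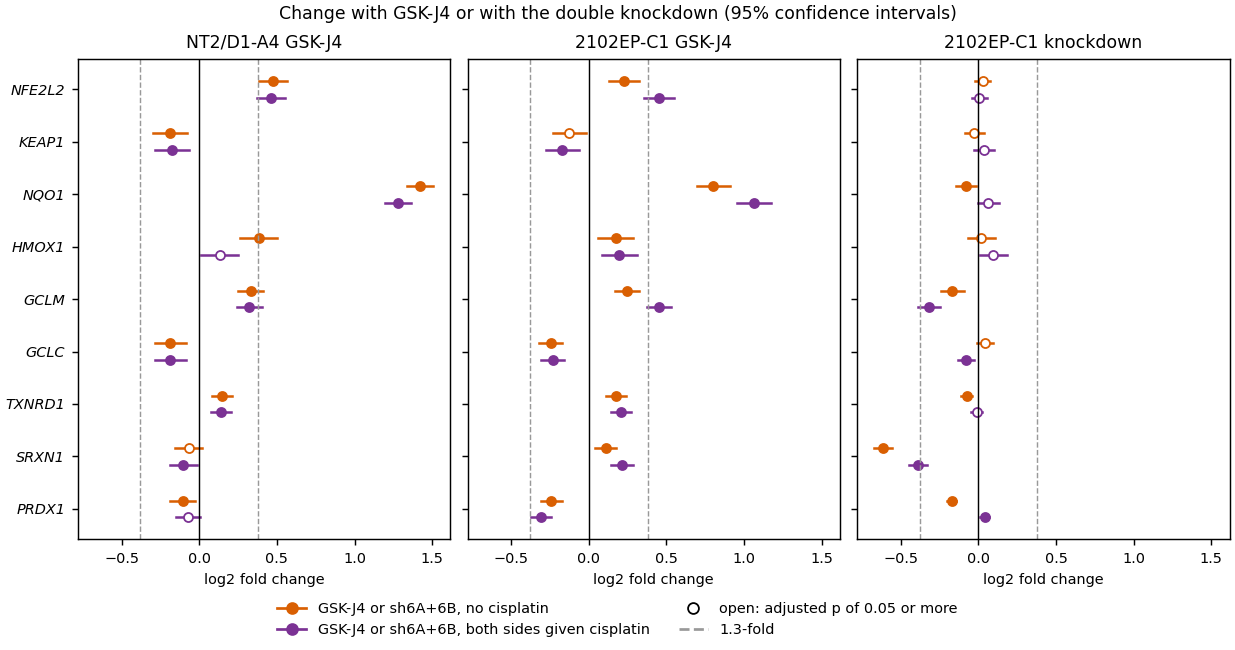
Log2 fold change (x axis) of each measured NRF2 gene (rows) with GSK-J4 or with sh6A+6B, without cisplatin (orange) and among cisplatin-treated cells (purple), with 95% confidence intervals from limma; dashed lines mark 1.3-fold and open points have an adjusted p of 0.05 or more. NQO1 lies between 0.80 and 1.42 in the GSK-J4 panels and SRXN1 at -0.61 and -0.39 in the knockdown panel.

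NQO1 (GeneID 1728, chr16:69709401-69726560, minus strand) encodes a quinone reductase and is a widely used marker of NRF2 activity. In NT2/D1-A4 it measured 5.99, 6.00 and 6.03 log2 CPM in untreated cells and 7.37, 7.47 and 7.44 after GSK-J4. In 2102EP-C1 it measured 4.73, 4.67 and 4.66 untreated and 5.47, 5.46 and 5.54 after GSK-J4. In both lines every GSK-J4 library lay above every untreated one. Here and below, a lack of overlap only describes the libraries, and its share over all genes was not counted. The log2 changes were 1.42 (SE 0.04, adjusted p = 2.9e-15) and 0.80 (SE 0.05, adjusted p = 3.7e-12), which ranked 215 of 16431 and 497 of 17035 genes by size. The knockdown libraries gave NQO1 values of 4.71, 4.78 and 4.69 in pLKO.1 cells and 4.63, 4.60 and 4.70 in sh6A+6B cells, and the arms overlapped. Its log2 difference of -0.08 (95% CI -0.15 to -0.01, adjusted p = 0.04) passed adjusted p only, and leaving out any of 4 libraries took adjusted p to as much as 0.22. GSK-J4 and the knockdown were not compared by a test, since they lie in separate tables.

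NFE2L2 (GeneID 4780, chr2:177230303-177264727, minus strand) was read at 5.90, 5.88 and 5.98 log2 CPM in untreated NT2/D1-A4 and at 6.39, 6.41 and 6.39 after GSK-J4, with no overlap. That is a log2 rise of 0.47 (SE 0.04, adjusted p = 5e-08), or 1.39-fold. In 2102EP-C1 it went from 5.55, 5.52 and 5.58 to 5.72, 5.80 and 5.81. The log2 difference of 0.23 (SE 0.05, adjusted p = 0.00035) passed adjusted p but not the fold threshold. In the third table NFE2L2 lay between 5.80 and 5.82 in pLKO.1 cells and between 5.81 and 5.85 in sh6A+6B cells, and the log2 difference of 0.03 had a 95% CI from -0.02 to 0.07. KEAP1 (GeneID 9817, chr19:10486125-10503356, minus strand), the adaptor that hands NRF2 to the ubiquitin ligase CUL3, was not called in any experiment. Its log2 difference with GSK-J4 was -0.19 (adjusted p = 0.0064) in NT2/D1-A4 and -0.13 (adjusted p = 0.058) in 2102EP-C1, with all GSK-J4 libraries below all untreated ones in each. With the knockdown it was -0.03 (adjusted p = 0.48).

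HMOX1 (GeneID 3162, chr22:35381096-35394207, plus strand), heme oxygenase 1, measured 3.62, 3.65 and 3.78 log2 CPM in untreated NT2/D1-A4 and 4.06, 4.04 and 4.1 after GSK-J4. Its log2 rise of 0.38 (SE 0.06, adjusted p = 2e-05) was 1.304-fold, just inside the threshold. It fell outside without untreated replicate 1 (0.35), untreated replicate 2 (0.365) or GSK-J4 replicate 3 (0.37). In 2102EP-C1 the untreated libraries read 4.44, 4.53 and 4.41 and the GSK-J4 libraries 4.73, 4.65 and 4.52, which overlapped. There the log2 difference of 0.17 passed adjusted p (0.016) only, and not without untreated replicate 1 (0.059), untreated replicate 3 (0.076) or GSK-J4 replicate 1 (0.11). With the knockdown HMOX1 differed by 0.02 (95% CI -0.07 to 0.11).

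GCLM (GeneID 2730, chr1:93885199-93909430, minus strand) and GCLC (GeneID 2729, chr6:53497341-53545101, minus strand) encode the modifier and the catalytic subunit of glutamate-cysteine ligase, which makes the first step of glutathione synthesis. The subunits moved apart with GSK-J4. In NT2/D1-A4, GCLM went from 6.36, 6.25 and 6.28 log2 CPM to 6.61, 6.63 and 6.65, while GCLC went from 5.89, 5.92 and 5.85 to 5.73, 5.74 and 5.65. In 2102EP-C1, GCLM went from 6.27, 6.32 and 6.25 to 6.50, 6.50 and 6.58, and GCLC from 6.46, 6.53 and 6.46 to 6.19, 6.26 and 6.28. All 4 comparisons were free of overlap, and none passed the fold threshold. The log2 differences were 0.33 (adjusted p = 9.9e-07) and 0.24 (adjusted p = 1.3e-05) for GCLM, and -0.19 (adjusted p = 0.0031) and -0.25 (adjusted p = 6.6e-06) for GCLC. With the knockdown GCLM was instead lower, from 5.94, 5.97 and 6.00 to 5.87, 5.74 and 5.80, a log2 difference of -0.17 (adjusted p = 0.00029), and GCLC differed by 0.04 (adjusted p = 0.18).

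The gap between the subunits, GCLM minus GCLC in log2 CPM within a library, was 0.41 ± 0.07 (SD, n = 3) in untreated NT2/D1-A4 and 0.92 ± 0.07 after GSK-J4. In 2102EP-C1 it was -0.20 ± 0.01 and 0.29 ± 0.03. Between knockdown arms it was -0.42 ± 0.02 in pLKO.1 cells and -0.63 ± 0.02 in sh6A+6B cells. Cisplatin left the gap at 0.41 ± 0.07, -0.24 ± 0.04 and -0.38 ± 0.05. The gap was formed after both genes had been seen, and it carries no test.

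**Figure D3:**
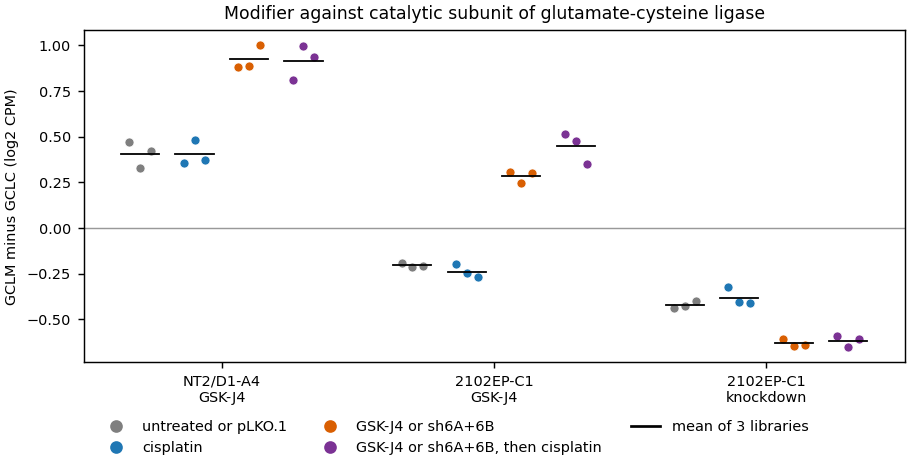
GCLM minus GCLC in log2 CPM (y axis) in each library, by experiment (x axis) and arm (color), with a bar at the mean of 3 libraries. The GSK-J4 arms lie above the arms without it in both lines, at means of 0.92 and 0.91 against 0.41 in NT2/D1-A4, and the sh6A+6B arms lie below the pLKO.1 arms, at -0.63 and -0.62 against -0.42 and -0.38.

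TXNRD1, SRXN1 and PRDX1 belong to the thioredoxin and peroxiredoxin cycle. PRDX1 reduces peroxides, SRXN1 (sulfiredoxin) restores peroxiredoxins that have been overoxidized, and TXNRD1 (thioredoxin reductase) supplies the reducing power. SRXN1 (GeneID 140809, chr20:646615-653200, minus strand) measured 6.50, 6.47 and 6.45 log2 CPM in pLKO.1 cells and 5.80, 5.86 and 5.92 in sh6A+6B cells, with no overlap. It fell by 0.61 on the log2 scale (SE 0.03, adjusted p = 1.3e-14) and ranked 707 of 16459 genes by size, and the call held without any 1 library. With GSK-J4 SRXN1 was not called. It measured 5.54, 5.48 and 5.49 untreated and 5.39, 5.44 and 5.47 treated in NT2/D1-A4 (log2 difference -0.07, adjusted p = 0.18), and 6.32, 6.29 and 6.33 untreated and 6.41, 6.43 and 6.42 treated in 2102EP-C1 (log2 difference 0.11, adjusted p = 0.013, and 0.058 without untreated replicate 2).

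TXNRD1 (GeneID 7296, chr12:104215779-104350307, plus strand) varied little among replicates and shifted by less than the fold threshold. Its log2 difference with GSK-J4 was 0.15 (adjusted p = 0.00056) in NT2/D1-A4 and 0.17 (adjusted p = 9.6e-05) in 2102EP-C1, and with the knockdown it was -0.07 (adjusted p = 0.00072). PRDX1 (GeneID 5052, chr1:45511051-45522890, minus strand) was lower in all 3 experiments, without passing the fold threshold. The log2 differences were -0.11 (adjusted p = 0.023), -0.24 (adjusted p = 1.8e-06) and -0.17 (adjusted p = 2.3e-10). In NT2/D1-A4 leaving out any of 4 libraries took adjusted p for PRDX1 to as much as 0.076. The groups did not overlap for TXNRD1 or PRDX1 in any of the 3 experiments.

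The same question was then asked among cisplatin-treated cells, in arms that the tests above did not contrast, although all 12 libraries of a table share 1 estimate of the spread. NQO1 was again called in both lines, NFE2L2 was now called in both, GCLM was called in 2102EP-C1, and SRXN1 was called with the knockdown. GSK-J4 called 2 of 9 members in NT2/D1-A4 against 20.7% of all genes, and 3 in 2102EP-C1 against 19.3%. The knockdown called 1 against 15.2%. On adjusted p alone the members numbered 7, 9 and 4, against 48.4%, 49.4% and 61.6% of all genes. The members' median log2 change was 0.13, 0.21 and 0.0056, beside 0.0055, -0.0006 and 0.0005 over all genes.

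NQO1 measured 6.17, 6.19 and 6.29 log2 CPM with cisplatin and 7.43, 7.51 and 7.54 with GSK-J4 and cisplatin in NT2/D1-A4. The log2 rise was 1.28 (SE 0.04, adjusted p = 2e-14). In 2102EP-C1 it measured 4.66, 4.80 and 4.73 and then 5.93, 5.73 and 5.71, a log2 rise of 1.06 (SE 0.05, adjusted p = 6.6e-15) that stood at 0.99 without combination replicate 1. NFE2L2 measured 6.00, 5.90 and 5.86 and then 6.43, 6.36 and 6.34 in NT2/D1-A4, a log2 rise of 0.46 (adjusted p = 7.9e-08). In 2102EP-C1 it measured 5.59, 5.51 and 5.49 and then 6.10, 5.92 and 5.93, a log2 rise of 0.45 (adjusted p = 8.3e-09), and of 0.39 without combination replicate 1, which was still called. Neither gene overlapped between these arms in either line. With the knockdown NQO1 differed by 0.06 (95% CI -0.0047 to 0.13) and NFE2L2 by 0.0056 (95% CI -0.04 to 0.05).

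GCLM measured 6.22, 6.18 and 6.15 with cisplatin and 6.69, 6.64 and 6.58 with GSK-J4 and cisplatin in 2102EP-C1. It rose by 0.45 on the log2 scale (SE 0.04, adjusted p = 2.4e-10), and by 0.43 without combination replicate 1. In NT2/D1-A4 it read 6.26, 6.23 and 6.22 and then 6.53, 6.60 and 6.54, a log2 difference of 0.32 (adjusted p = 1.5e-06) under the fold threshold. Under knockdown it read 6.11, 6.00 and 5.96 and then 5.71, 5.66 and 5.74, a log2 difference of -0.32 (adjusted p = 3e-08), also under it. GCLC differed by -0.19, -0.23 and -0.08 in the 3 experiments, each past adjusted p only (0.003, 6.6e-06 and 0.0067).

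SRXN1 measured 6.37, 6.38 and 6.38 in pLKO.1 cells given cisplatin and 5.92, 6.01 and 6.04 in sh6A+6B cells given cisplatin, with no overlap. It fell by 0.39 on the log2 scale (SE 0.03, adjusted p = 2.3e-11), close to the fold threshold. Without sh6A+6B cisplatin replicate 1 the log2 difference was -0.36, and with library size scaling only it was -0.375, both outside the call. With GSK-J4 the log2 difference of SRXN1 was -0.10 (adjusted p = 0.047) in NT2/D1-A4, which 10 of 12 single libraries left out took past 0.05, and 0.21 (adjusted p = 7e-06) in 2102EP-C1. HMOX1 differed by 0.13, 0.20 and 0.09, and passed adjusted p in 2102EP-C1 (0.0042) and not in NT2/D1-A4 (0.068) or with the knockdown (0.055). KEAP1 differed by -0.18 (adjusted p = 0.0085), -0.17 (adjusted p = 0.007, and 0.052 without cisplatin replicate 3) and 0.04 (adjusted p = 0.31). TXNRD1 differed by 0.14, 0.21 and -0.01, and PRDX1 by -0.07, -0.31 and 0.04. Without combination replicate 1, all 9 members in 2102EP-C1 still passed adjusted p.

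Cisplatin itself called no member. In cells without pretreatment, limma called 0 of 9 in each table, against 2.45%, 1.07% and 3.0% of all genes in NT2/D1-A4, 2102EP-C1 and pLKO.1 cells. At an unadjusted p under 0.05 the members numbered 2, 2 and 4, against 4051 of 16431, 2852 of 17035 and 7302 of 16459 genes. On adjusted p they numbered 2, 0 and 3, against 9.43%, 4.08% and 36.1% of all genes. These comparisons share their untreated or pLKO.1 libraries with the comparisons of pretreatment alone. The largest difference among them was HMOX1 in NT2/D1-A4, from 3.62, 3.65 and 3.78 log2 CPM to 3.95, 3.93 and 3.91, without overlap. Its log2 difference was 0.25 (adjusted p = 0.011), and adjusted p was 0.059 without untreated replicate 1 and 0.054 without untreated replicate 2. NQO1 in NT2/D1-A4 went from 5.99, 6.00 and 6.03 to 6.17, 6.19 and 6.29, also without overlap, a log2 difference of 0.21 (adjusted p = 0.0034). In 2102EP-C1 NQO1 differed by 0.04 (95% CI -0.06 to 0.15) and HMOX1 by 0.005 (95% CI -0.11 to 0.12). In pLKO.1 cells KEAP1 (-0.12, adjusted p = 0.0028), PRDX1 (-0.08, adjusted p = 4.3e-05) and SRXN1 (-0.09, adjusted p = 0.011, and 0.062 without pLKO.1 replicate 1) passed adjusted p only.

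After pretreatment, cisplatin again called 0 of 9 members in each table by limma, against 0.377%, 2.22% and 3.52% of all genes. At an unadjusted p under 0.05 they numbered 0, 6 and 7, against 2403 of 16431, 4997 of 17035 and 8399 of 16459 genes. On adjusted p they numbered 0, 4 and 7, against 1.26%, 15.7% and 44.8%. In 2102EP-C1 NQO1 went from 5.47, 5.46 and 5.54 after GSK-J4 to 5.93, 5.73 and 5.71 after GSK-J4 and cisplatin. The log2 difference was 0.30 (adjusted p = 0.00031), and 0.24 (adjusted p = 0.0044) without combination replicate 1. NFE2L2 in the same cells differed by 0.20 (adjusted p = 0.0036), and by 0.14 (adjusted p = 0.042) without that library. GCLM there differed by 0.11 (adjusted p = 0.047), and by 0.08 (adjusted p = 0.22) without it. In sh6A+6B cells NQO1 went from 4.63, 4.60 and 4.70 to 4.82, 4.89 and 4.86, a log2 difference of 0.21 (adjusted p = 1e-05), and PRDX1 went from 10.16, 10.17 and 10.19 to 10.30, 10.32 and 10.30, a log2 difference of 0.13 (adjusted p = 4e-08). No overlap was seen in these 5 comparisons. KEAP1, the other member past adjusted p in 2102EP-C1, differed by -0.16 (adjusted p = 0.033) with overlapping arms, and 4 of 12 single libraries left out took adjusted p to as much as 0.21. Also in sh6A+6B cells, SRXN1 differed by 0.13 (adjusted p = 0.00056) and TXNRD1 by 0.07 (adjusted p = 0.0024). In the other direction, GCLC differed by -0.11 (adjusted p = 0.00086), NFE2L2 by -0.08 (adjusted p = 0.0083, and 0.058 without sh6A+6B cisplatin replicate 2) and GCLM by -0.10 (adjusted p = 0.027, lost without any of 4 libraries).

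**Figure D4:**
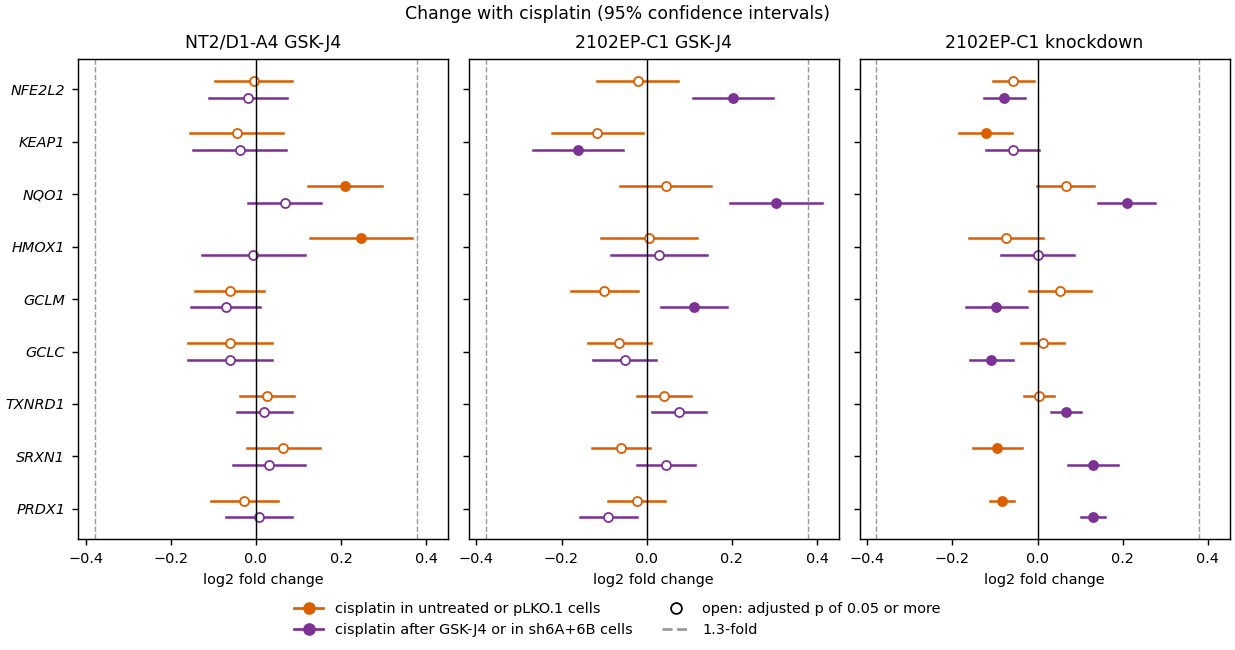
Log2 fold change (x axis) of each measured NRF2 gene (rows) with cisplatin, in untreated or pLKO.1 cells (orange) and after GSK-J4 or in sh6A+6B cells (purple), with 95% confidence intervals from limma; dashed lines mark 1.3-fold and open points have an adjusted p of 0.05 or more. No point lies beyond 1.3-fold, and the highest are NQO1 in GSK-J4-treated 2102EP-C1 at 0.30 and HMOX1 in NT2/D1-A4 without GSK-J4 at 0.25.

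Whether cisplatin acted differently with and without pretreatment was tested as an interaction. Limma called 0 of 9 members, against 0.0426%, 0.857% and 3.77% of all genes. At an unadjusted p under 0.05 the members numbered 2, 4 and 6, against 1174 of 16431, 2999 of 17035 and 7088 of 16459 genes. On adjusted p they numbered 0 in NT2/D1-A4, 1 in 2102EP-C1 and 6 in the knockdown table, against 0.0426%, 2.38% and 35.1% of all genes. In 2102EP-C1 the cisplatin effect on GCLM was higher after GSK-J4 by 0.21 (95% CI 0.10 to 0.32, adjusted p = 0.036), and 10 of 12 single libraries left out took adjusted p over 0.05, to as much as 0.11. Without combination replicate 1 the GCLM value was 0.18 (adjusted p = 0.095). NQO1 (0.26, adjusted p = 0.06) and NFE2L2 (0.22, adjusted p = 0.063) did not pass there, and without that library they stood at 0.19 and 0.17 (adjusted p = 0.18 for each). In the knockdown table the cisplatin effect in sh6A+6B cells was higher than in pLKO.1 cells for SRXN1, by 0.22 (adjusted p = 8.3e-05), for PRDX1, by 0.21 (adjusted p = 6e-09), and for NQO1, by 0.14 (adjusted p = 0.017, and 0.065 without pLKO.1 replicate 2). PRDX1 stood at 10.27, 10.26 and 10.27 in pLKO.1 cells given cisplatin and at 10.30, 10.32 and 10.30 in sh6A+6B cells given cisplatin, where the arms without cisplatin had been 10.36, 10.35 and 10.34 and 10.16, 10.17 and 10.19.

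The combination was also compared with untreated or pLKO.1 cells, 1 of the contrasts the study drew. It called 2, 2 and 1 of the 9 members, against 25.4%, 22.6% and 16% of all genes. NQO1 rose 2.81-fold in NT2/D1-A4 (log2 1.49, SE 0.04, adjusted p = 1.2e-15) and 2.15-fold in 2102EP-C1 (log2 1.11, SE 0.05, adjusted p = 2.2e-15, and 1.04 without combination replicate 1). NFE2L2 rose by 0.46 (adjusted p = 6.1e-08) and 0.43 (adjusted p = 1.4e-08). In 2102EP-C1 it was 0.37 without combination replicate 1 and then under the fold threshold. SRXN1 fell by 0.48 (SE 0.03, adjusted p = 5e-13) with the knockdown and cisplatin, where NQO1 differed by 0.13 (adjusted p = 0.0013). HMOX1 in NT2/D1-A4 lay just outside the threshold at 1.299-fold (log2 0.377), and was called with library size scaling only (0.43), voom (0.381), a prior count of 0.5 (0.379), or without untreated replicate 3 (0.43) or combination replicate 1 (0.39) or 2 (0.381). GCLM in 2102EP-C1 lay at 1.28-fold, which became a log2 change of 0.38 and a call without combination replicate 3.

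Other genes of the pathway were described from a list of 72 written from general knowledge, of which 64, 68 and 68 were measured. With GSK-J4 in NT2/D1-A4, 22 rose and 3 fell, and in 2102EP-C1 9 rose and 3 fell. With the knockdown 1 rose and 4 fell. Over all genes tested 20.3%, 10.9% and 12.1% were called, with 2267 rising and 1065 falling, 1327 and 531, and 1044 and 945. The median log2 change of the list was 0.21, 0.05 and -0.08, beside 0.0084, -0.0017 and -0.0047 over all genes tested. Heme and iron genes had the highest median in both GSK-J4 tables, 0.58 and 0.36, with 5 and 3 of 6 genes rising. With the knockdown that median was -0.13. SLC40A1 (ferroportin, the iron exporter) was the 1 listed gene called in the same direction in all 3 experiments, with log2 rises of 1.41, 0.89 and 0.47. It measured -0.16, -0.30 and -0.17 log2 CPM in untreated NT2/D1-A4 and 0.99, 1.27 and 1.35 after GSK-J4, 0.94, 0.74 and 0.97 and then 1.63, 1.72 and 1.97 in 2102EP-C1, and 1.45, 1.28 and 1.42 in pLKO.1 and 1.85, 1.96 and 1.75 in sh6A+6B cells. The ferritin chains FTH1 (0.61 and 0.62) and FTL (0.77 and 0.63), named after their values were seen, rose with GSK-J4 in both lines, and with the knockdown they differed by -0.28 and -0.24 without passing the fold threshold. Ferritin genes have many near-identical pseudogenes, so their counts are uncertain, and FTH1 stood at 5.58 log2 CPM in untreated 2102EP-C1 of the GSK-J4 table and at 8.88 in pLKO.1 cells of the knockdown table.

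Of 17 glutathione genes, 6 rose and 0 fell in NT2/D1-A4, 1 rose and 0 fell in 2102EP-C1, and 0 rose and 1 fell with the knockdown, beside the same backgrounds of 20.3%, 10.9% and 12.1%. SLC7A11, the cystine importer that feeds glutathione synthesis, had the largest change of the list in both GSK-J4 tables. It measured 6.44, 6.22 and 6.23 log2 CPM untreated and 8.17, 8.29 and 8.23 after GSK-J4 in NT2/D1-A4 (log2 rise 1.93, SE 0.05), and 6.26, 6.31 and 6.29 and then 7.21, 7.26 and 7.40 in 2102EP-C1 (log2 rise 1.00, SE 0.05). With the knockdown it differed by 0.29 and was not called. GSR, glutathione reductase, fell with the knockdown by 0.47 (SE 0.02), from 6.99, 7.01 and 6.99 to 6.52, 6.51 and 6.55, and differed by -0.07 and 0.06 with GSK-J4. SLC7A11 is also a target of the stress factor ATF4.

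Of 12 thioredoxin and peroxiredoxin genes outside the members, 7 rose and 0 fell in NT2/D1-A4, 2 rose and 0 fell in 2102EP-C1, and 0 rose or fell with the knockdown, where 2 were higher and 6 lower on adjusted p. The backgrounds were again 20.3%, 10.9% and 12.1%, and 52.8% on adjusted p with the knockdown. SESN2, a stress-induced sestrin, went from 4.01, 4.09 and 4.07 to 5.90, 5.86 and 5.91 log2 CPM in NT2/D1-A4, a log2 rise of 1.84, and rose by 0.81 in 2102EP-C1. With the knockdown it differed by -0.06 (95% CI -0.13 to 0.02). SESN2 is also a target of p53. Of 10 regulators and partners of NRF2, 0 rose and 1 fell in NT2/D1-A4 (MAFK, -0.47), 2 rose and 1 fell in 2102EP-C1, and 0 were called with the knockdown, where 4 were higher and 4 lower on adjusted p, beside those backgrounds. SQSTM1 (p62), which binds KEAP1 and carries it to autophagy, went from 6.13, 6.19 and 6.16 to 7.08, 7.02 and 6.92 in 2102EP-C1, a log2 rise of 0.84, while in NT2/D1-A4 it differed by 0.33 and was not called. The other calls in 2102EP-C1 were MAFF (0.46), a small MAF partner, and RBX1 (-0.39), a subunit of the KEAP1 ligase. MAFK, MAFF and RBX1 were named after their values were seen.

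Of 6 NADPH-supplying genes, 2 rose in NT2/D1-A4, 1 in 2102EP-C1 and 0 with the knockdown, and 0 fell, beside 20.3%, 10.9% and 12.1% of all genes called in either direction. These shares are also the background for the 2 groups that follow. Malic enzyme ME1 was called in both lines (0.58 and 0.40) and IDH1 in NT2/D1-A4 (0.44), both named after their values were seen. Of the quinone, aldehyde and export genes, 11, 14 and 14 of 18 were measured. In NT2/D1-A4 2 rose and 2 fell, in 2102EP-C1 0 rose and 1 fell, and with the knockdown 0 rose and 2 fell. The larger fall with the knockdown was ABCC3, an export pump, by 0.55 (SE 0.20, adjusted p = 0.022), at a low level of -0.56, -0.79 and -0.58 log2 CPM in pLKO.1 cells and between -1.68 and -0.90 in sh6A+6B cells. The other calls, named after their values were seen, were NQO2 (0.83), PIR (0.67), CBR3 (-0.45) and TRIM16 (-0.45) in NT2/D1-A4, CBR3 (-0.42) in 2102EP-C1 and ABCC2 (-0.38) with the knockdown. Of 3 superoxide and peroxide genes, 0 of the 2 measured in NT2/D1-A4 were called, and 1 of 3 fell in each of the other two experiments. Catalase (CAT) fell in 2102EP-C1 with GSK-J4 (-0.76) and with the knockdown (-0.40), also named after its values were seen.

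**Figure D5:**
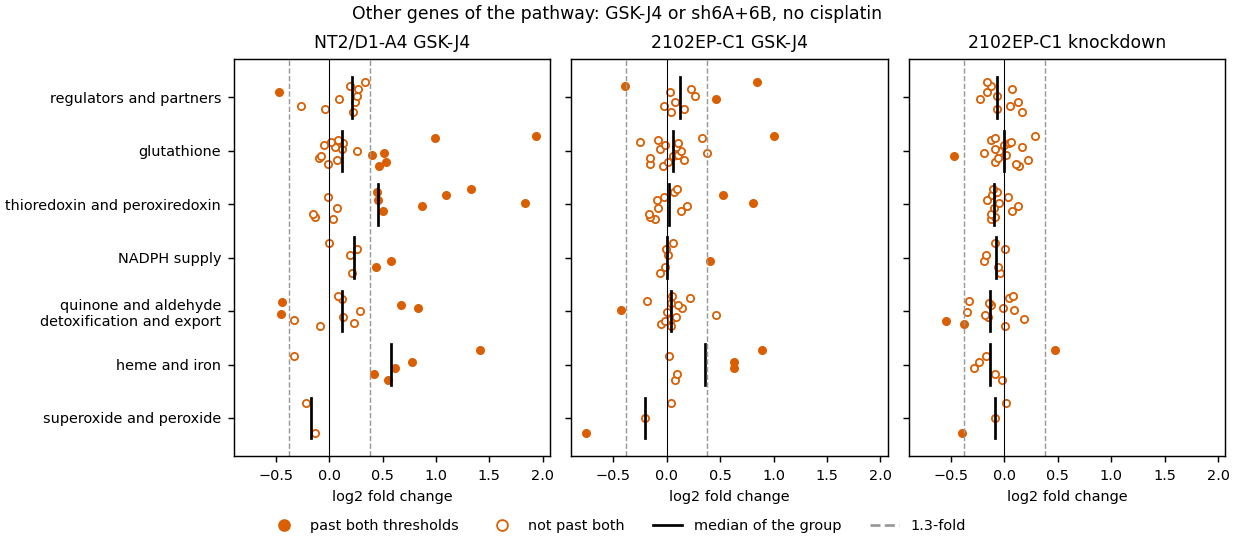
Log2 fold change (x axis) with GSK-J4 or sh6A+6B, without cisplatin, of each measured gene of the pathway list (points) by group (rows), with the median of a group as a bar; filled points pass both thresholds and dashed lines mark 1.3-fold. The heme and iron group has medians of 0.58 and 0.36 in the GSK-J4 panels and -0.13 in the knockdown panel.

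Cisplatin alone called 3 of the listed genes in NT2/D1-A4, all higher, and 0 in 2102EP-C1 and in pLKO.1 cells, against 2.45%, 1.07% and 3.0% of all genes. They were TXNRD3 (0.54), BLVRA (0.40) and GGT1 (0.39), named after their values were seen. On adjusted p alone, 10 were higher and 2 lower in NT2/D1-A4, 2 higher and 0 lower in 2102EP-C1, and 7 higher and 21 lower in pLKO.1 cells, against 9.43%, 4.08% and 36.1% of all genes.

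Genes whose levels followed a member across libraries were sought for NQO1 and SRXN1, the members with the largest mean absolute change (0.77 and 0.26 on the log2 scale). Among 12829 genes, those with the highest mean Pearson's r over the 3 tables, each over 12 libraries, were TGIF1 (0.953), SGCB (0.941) and EPB41L5 (0.936) for NQO1, and COTL1 (0.908), SEPHS2 (0.904) and SCRN1 (0.890) for SRXN1. The 12 libraries of a table share 4 arms, so such an r mostly describes the order of the arms, and it carries no test. Between members, NFE2L2 and NQO1 had an r of 0.97 in NT2/D1-A4, 0.96 in 2102EP-C1 and -0.79 in the knockdown table.

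Reads at several members may be shared with overlapping genes, and the strand setting used in counting is not given in the sources used here. NFE2L2 and GCLC overlap genes on both strands, NQO1 overlaps a lncRNA on the opposite strand, PRDX1 overlaps MMACHC on the opposite strand, KEAP1 overlaps a lncRNA on its own strand, SRXN1 overlaps another protein-coding gene on its own strand, and TXNRD1 overlaps EID3 on its own strand. HMOX1 and GCLM overlap no annotated gene. PRDX1 also has processed pseudogenes, and its level stood at 9.78 log2 CPM in untreated 2102EP-C1 of the GSK-J4 table and at 10.35 in pLKO.1 cells of the knockdown table.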

How the data were processed

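The authors used TruSeq Stranded mRNA libraries, Trimmomatic for trimming, STAR for alignment to GRCh38.p14 and featureCounts for reads per gene, removed genes not over 0.5 CPM in at least 2 samples, and applied TMM scaling. Tool versions are not given in the sources used here. The deposited values are log2 CPM per NCBI GeneID, with a prior count of 3 found from the values: all values under 50 reads came out within 0.05 of a whole read. Here limma 3.58.1 (R 4.3.3) was fitted to the deposited log2 values of each table's 12 libraries by arm, with an intensity trend and Benjamini-Hochberg adjustment over all genes of the table. The series design text calls the samples biological triplicates. Replicates differed by more than counting noise. No test crossed tables, since each was scaled separately. Genes were called at a fold above 1.3 with adjusted p under 0.05.

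The members and lists were chosen with earlier results of these data known. All members were described. From the pathway list, genes called in all 3 experiments in 1 direction, and the 3 largest called changes per experiment, were named. Alternatives were library size scaling, another prior count, voom on recovered reads, a stricter filter, no fold threshold, only the libraries compared, a replicate block, and leaving out each library. Overlapping genes and transcript lengths came from GENCODE release 44, and promoters from RefSeq.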

Additional observations from a re-analysis of the deposited data

Results flagged for a closer look

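The cisplatin effect differed by pretreatment for 7 member values, by limma's interaction test on adjusted p alone. In 2102EP-C1 with GSK-J4 the value was 0.2094 for GCLM. In the knockdown table the values were 0.2139 for PRDX1, 0.2244 for SRXN1, 0.1431 for NQO1, 0.0646 for TXNRD1 (adjusted p = 0.04), -0.1492 for GCLM (adjusted p = 0.021) and -0.1206 for GCLC (adjusted p = 0.0083). None passed the fold threshold, and with the knockdown 35.1% of all genes passed on adjusted p. Leaving out single libraries took adjusted p over 0.05 in 10 of 12 cases for GCLM in 2102EP-C1 (up to 0.11) and for TXNRD1 (up to 0.095), in 4 cases for GCLM in the knockdown table (up to 0.085), and for NQO1 without pLKO.1 replicate 2 (0.065).

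SRXN1 differed in opposite directions in the lines, every library of an arm lying on 1 side of its control arm. The difference between lines was not tested, and several of the values did not pass limma. With GSK-J4 alone the log2 difference was 0.1083 (adjusted p = 0.013) in 2102EP-C1 and -0.0681 (adjusted p = 0.18) in NT2/D1-A4. Among cisplatin-treated cells the values were 0.2131 (adjusted p = 7e-06) and -0.1018 (adjusted p = 0.047, lost in 10 of 12 cases when 1 library was left out). With cisplatin alone they were 0.0644 (adjusted p = 0.36) in NT2/D1-A4, -0.06 (adjusted p = 0.37) in 2102EP-C1 and -0.094 (adjusted p = 0.011) in pLKO.1 cells. How many of all genes lay on 1 side in this way was not counted. Groups of 3 libraries were not tested for outliers.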

How the results depend on the processing

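No called member changed direction under any alternative run. Without the fold threshold the members called numbered, for NT2/D1-A4, 2102EP-C1 and the knockdown in turn, 8, 8 and 5 with pretreatment alone, 7, 9 and 4 with pretreatment within cisplatin, 2, 0 and 3 with cisplatin alone, 0, 4 and 7 with cisplatin after pretreatment, 8, 9 and 6 with the combination, and 0, 1 and 6 for the interaction. Over all genes the shares on adjusted p were 48.3%, 35.2% and 52.8% with pretreatment alone, and 48.4%, 49.4% and 61.6% within cisplatin. They were 9.43%, 4.08% and 36.1% with cisplatin alone, 1.26%, 15.7% and 44.8% after pretreatment, and 0.0426%, 2.38% and 35.1% for the interaction. For the combination that share was not counted. There 8, 9 and 7 members passed an unadjusted p under 0.05 in limma. Over all genes 9663 of 16431, 9845 of 17035 and 10833 of 16459 did. Library size scaling only gave 0 calls with the knockdown within cisplatin, against 1. HMOX1 became a further call with the combination in NT2/D1-A4 (3 calls against 2) with that scaling, with voom and with a prior count of 0.5. That scaling moved the median of all genes by at most 0.0506 on the log2 scale. Leaving out 1 library gave 0 to 1 calls with the knockdown within cisplatin (0 without sh6A+6B cisplatin replicate 1), 1 to 3 with the combination in 2102EP-C1 (1 without combination replicate 1, 3 without combination replicate 3), and 2 to 3 with GSK-J4 alone and with the combination in NT2/D1-A4. Each single-gene value of the members was refitted without each of 12 libraries in turn. Of these refits 82 lost and 22 gained adjusted p under 0.05, and 1840 did not change. These numbers count refits, so 1 value can enter several times. Counted by value, library size scaling lost 7 and gained 3, and using only the libraries compared lost 5 and gained 3. Prior count 0.5 changed none of the 162 on adjusted p, and voom and the stricter filter gained 2 each.

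The replicate numbers showed no general pairing: deviations of same-numbered libraries from their arm means had median correlations of -0.008, 0.006 and 0.004 over genes. Single correlations ranged from -0.144 to 0.183, from -0.094 to 0.068 and from -0.108 to 0.231. Of 18 in each experiment, 2, 0 and 3 were over 0.1. With the replicate block the members called were as many as without it. On adjusted p, SRXN1 within cisplatin in NT2/D1-A4 (0.058) and GCLM with cisplatin after GSK-J4 in 2102EP-C1 (0.059) no longer passed, and HMOX1 with the knockdown within cisplatin (0.047) did. The GCLM interaction in 2102EP-C1 stayed just under the threshold with the block, at an adjusted p that rounds to 0.05.

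Counts over all genes moved by more than 1.5 times with only genes over 1 log2 CPM in every library: to 1917, 957 and 907 from 3332, 1858 and 1989 with pretreatment alone, to 1894, 1962 and 1307 from 3396, 3295 and 2497 with pretreatment within cisplatin, to 229, 118 and 152 from 402, 182 and 493 with cisplatin alone, to 196 and 186 from 379 and 579 with cisplatin after pretreatment in 2102EP-C1 and the knockdown, to 2398, 2293 and 1339 from 4180, 3849 and 2634 with the combination, and to 403 from 620 for the knockdown interaction. With only the libraries compared, cisplatin after GSK-J4 in NT2/D1-A4 called 18 genes against 62, and 20 to 107 with 1 library left out. In 2102EP-C1 that comparison called 164 to 725 against 379, and the interaction 59 to 447 against 146. The NT2/D1-A4 interaction called 1 to 11 against 7, and cisplatin alone in 2102EP-C1 called 118 without untreated replicate 1 and 117 without cisplatin replicate 2, against 182. HMOX1 had the fewest reads of the members, 407 in the smallest case.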
